A study of Mus musculus with 10 samples.

Results

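The genes described here are the adult haemoglobin genes *Hba-a1*, *Hba-a2*, *Hbb-b1*, *Hbb-b2*, *Hbb-bs* and *Hbb-bt*, together with *Alas2*, which codes for the enzyme that begins haem synthesis in developing red cells. These 7 of the 24453 genes in the count table were chosen by name from earlier results of the same libraries, in which haemoglobin reads had been seen. Every value for them is therefore a description. The fits over all genes included them, but on the contrast that their choice had used, so their counts in those fits stand beside the share of all genes as a description, and nothing is read from them. The libraries were made from IT-PNs (intratelencephalic projection neurons) of layer 5 of the primary motor cortex (M1), to compare neurons with and without *Fezf2* expression. There were 10 libraries, 1 of each type from each of 5 animals, and both libraries of an animal carry the same number from 1 to 5. All animals were hemizygous males of the reporter line (Zfp312-EGFP)CO61GsatMmnc on a Swiss Webster background, in which regulatory elements of *Fezf2* drive GFP, so that GFP stands for *Fezf2* only as far as the transgene follows the gene. All received a fluorescent retrograde tracer, cholera toxin subunit b, in the left M1 at postnatal day 23 to 25, and tissue of the right hemisphere was taken at postnatal day 28 to 32 after perfusion with 0.9% saline. *Fezf2+ve* IT-PNs (Fezf2+ IT-PN in the sample labels) were sorted for GFP and tracer, and *Fezf2−ve* IT-PNs (Fezf2- IT-PN) for tracer without GFP, after small events, doublets and DAPI-positive cells had been gated out. Mean yields in the sample records were 11280 and 2688 cells, and the second of these differs in the study's text. *Fezf2* itself had 1 read in the 10 libraries, so its counts could not serve to check the labels, for which the study had used RT-PCR of that gene.

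Haemoglobin of adult blood is built from alpha and beta chains, each of which holds a haem group that binds oxygen. The chains are made in enormous amounts by red cell precursors in the bone marrow, and the circulating cells of a mammal carry leftover globin mRNA after they have lost their nuclei. In brain tissue globin mRNA is therefore usually read as a trace of blood, although low expression has also been described in neurons and glia. Perfusion with saline is a step that removes blood from vessels before dissection. Haemoglobin transcripts from red cells, from free RNA and from neurons cannot be told apart in a bulk library, and neither can fewer cells of a type and less RNA per cell.

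In the GENCODE annotation of GRCm38, which is mm10, 5 of the 7 genes were found. *Hba-a1* lies at chr11:32283511-32284465 and *Hba-a2* at chr11:32296489-32297298, both on the plus strand. *Hbb-bs* lies at chr7:103826534-103828096 and *Hbb-bt* at chr7:103812524-103813996, both on the minus strand. *Alas2* lies at chrX:150547375-150570638 on the plus strand, and all 5 are protein-coding. *Hbb-b1* and *Hbb-b2* are the names of the beta genes on another haplotype of laboratory mice and have no place in this annotation. RefSeq promoter sequences of GRCm38.p6 were matched by symbol for 5 of the 7 genes, and 1 alpha and 1 beta promoter are shown. The 120 bases before the *Hba-a2* start (chr11:32296372-32296491, plus strand) and the 80 bases before the *Hbb-bs* start (chr7:103827929-103828008, minus strand) are written from 5′ to 3′, and capitals mark the motifs found. These starts are those of RefSeq, which differ from GENCODE: the *Hba-a2* window runs 3 bases past the GENCODE start, and the *Hbb-bs* window lies within an intron of the longest GENCODE transcript.
*Hba-a2*: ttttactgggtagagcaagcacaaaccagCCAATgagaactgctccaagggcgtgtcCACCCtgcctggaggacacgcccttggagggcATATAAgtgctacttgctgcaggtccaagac
*Hbb-bs*: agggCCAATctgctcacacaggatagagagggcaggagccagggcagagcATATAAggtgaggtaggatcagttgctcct

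The motifs searched on both strands were CCAAT, found in many promoters, the TATA-like ATATAA, the CACCC core of Krüppel-like factors, and the GATAA core of GATA factors. Each promoter held 1 CCAAT and 1 ATATAA, which do not overlap. Among 32851 promoters, windows of 120 bases held CCAAT in 21.3%, ATATAA in 4.47%, CACCC in 31.7% and GATAA in 10.5%. Windows of 80 bases held CCAAT in 15.3%, ATATAA in 3.21%, CACCC in 22.7% and GATAA in 6.77%. CACCC had 1 match in the *Hba-a2* window and 0 in the shorter *Hbb-bs* window, and GATAA had 0 in both. The windows of *Hba-a1* and *Hba-a2* shared an unbroken run of 117 of 120 bases.

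The 7 genes gave 4 distinct count patterns. *Hba-a1* and *Hba-a2* had the same count in every library, as did *Hbb-b1* and *Hbb-bs*, and *Hbb-b2* and *Hbb-bt*. Identical counts are taken as 1 pattern below, and a level cannot be given to a single gene of a pair. Reads shorter than 50 bases had been discarded, so sequence shared over 50 bases was counted in the annotated transcripts. Of the 50-base windows of *Hba-a1*, 67.5% also occurred in *Hba-a2*, and of those of *Hba-a2*, 86.9% occurred in *Hba-a1*. Of the windows of *Hbb-bs*, 65.8% occurred in *Hbb-bt*, and 58.3% in the other direction. No window was shared between *Hba-a1* and *Hbb-bs* (0 of 650). The *Hbb-bs* and *Hbb-bt* counts are thus uncertain as well, since a read may have been placed on both, and the sum of the 3 haemoglobin patterns may hold some reads more than once.

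**Figure D1:**
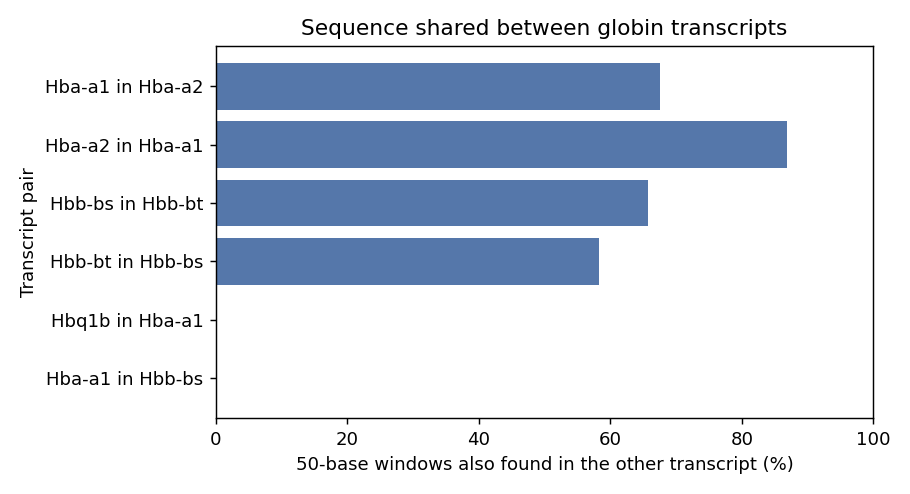
Bars give the percent of the 50-base windows of 1 annotated transcript that also occur in another. The alpha pair shared 67.5 and 86.9% of its windows and the beta pair 65.8 and 58.3%, whereas *Hbq1b* and *Hba-a1* shared 0%.

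Gene counts summed to between 89138 and 217738 in a library, and this sum, called gene reads here, can hold a read more than once where it overlapped several genes. Levels are given in CPM, which scales a count to the gene reads of its library. The floor of detection was set at 3 reads, or 13.8 to 33.7 CPM. Numbers of animals with a lower or higher level count any difference, those below the floor included. PCR reads are not independent molecules, so floors and intervals cover counting error only.

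The alpha chain genes *Hba-a1* and *Hba-a2* were represented, for animals 1 to 5 in order, by 14, 1, 1, 0 and 0 *Fezf2+ve* reads. Their *Fezf2−ve* reads were 163, 44, 15, 10 and 1. As levels, this was 119, 9.29, 8.47, 0 and 0 CPM against 971, 494, 88.9, 47.3 and 4.59 CPM. The *Fezf2+ve* library was the lower of the pair in 5 of 5 animals, in animal 5 by 1 read, which is below the floor, although the 2 types overlapped in range because *Fezf2+ve* library 1 lay above *Fezf2−ve* libraries 3, 4 and 5. The mean of the *Fezf2+ve* libraries was 27.3 ± 51.2 CPM (SD, n = 5) and that of the *Fezf2−ve* libraries was 321 ± 413 CPM (SD, n = 5), a ratio of 11.8. The ratio rested on animal 1, without which it was 35.7. On the log2(CPM + 1) scale the mean within-animal difference, *Fezf2+ve* minus *Fezf2−ve*, was -3.99 ± 1.49 (SD, n = 5).

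The beta chain genes *Hbb-b1* and *Hbb-bs* were counted 40, 5, 0, 0 and 0 times in *Fezf2+ve* libraries 1 to 5. The *Fezf2−ve* libraries held 225, 112, 8, 20 and 0 reads of the same pair. These were 339 and 46.4 CPM in *Fezf2+ve* libraries 1 and 2, and 1340, 1256, 47.4 and 94.6 CPM in *Fezf2−ve* libraries 1 to 4. *Fezf2+ve* was lower in 4 animals, and in animal 5 both libraries were at 0, so that the pair was not detectable there at this depth. The mean CPM of *Fezf2−ve* libraries was 7.11 times that of *Fezf2+ve* libraries, 30.1 times without animal 1 and 4.38 times without animal 2. The mean within-animal difference was -3.78 ± 2.72 (SD, n = 5) on the log2(CPM + 1) scale.

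The other beta pair, *Hbb-b2* and *Hbb-bt*, followed closely, with 35, 4, 0, 0 and 0 reads in *Fezf2+ve* and 207, 94, 8, 20 and 0 reads in *Fezf2−ve* libraries. Its mean within-animal difference was -3.80 ± 2.71 (SD, n = 5) on the same scale. In the 5 libraries with at least 10 reads of *Hba-a1* and *Hbb-bs* together, *Hbb-bt* had 0.839 to 1 times the reads of *Hbb-bs*. *Alas2* was at 0 in each *Fezf2+ve* library, and its *Fezf2−ve* counts were 1, 0, 0, 1 and 0. It was under the floor of 3 reads in each library, so no fold is given.

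**Figure D2:**
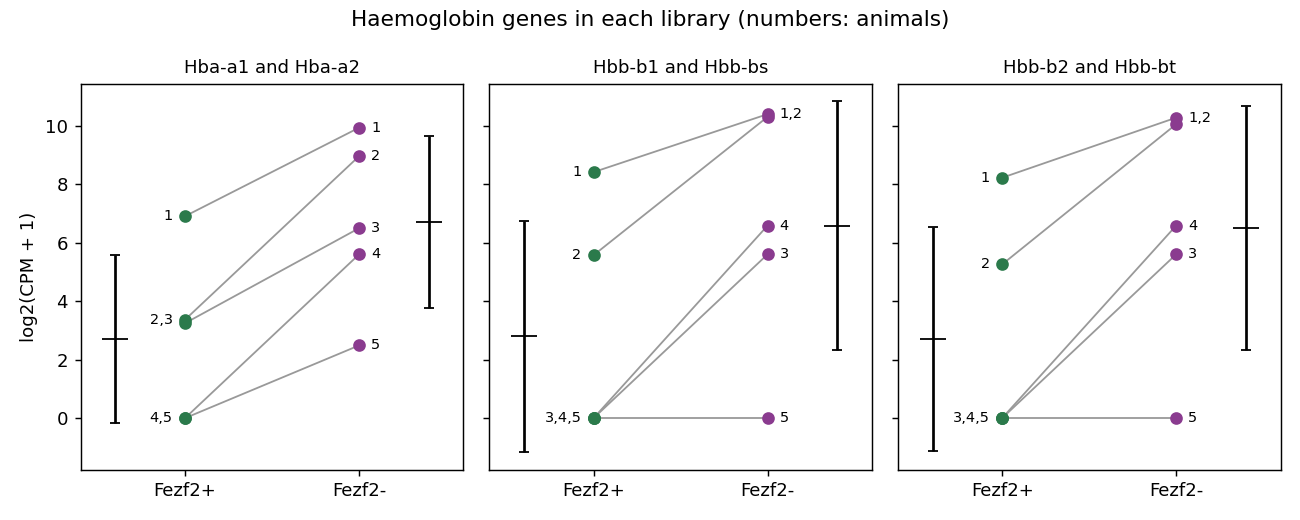
Each point is the log2(CPM + 1) of a haemoglobin pattern in 1 library, grey lines join both libraries of an animal, numbers name the animals, and black bars give the mean and SD of a type (n = 5). *Fezf2+ve* points lie at or below their *Fezf2−ve* partners in all 3 panels, and animals 1 and 2 are highest in both types.

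Of the 4 patterns, the 3 of haemoglobin, which are 6 of the 7 genes, passed the filter of at least 10 CPM in at least 2 libraries that kept 7409 genes. Beside the fits over all of these genes, which hold the contrast that the choice of members used, their counts are given only as a description. With the animal as a block, edgeR's quasi-likelihood test called 0 of the 7409 genes at an adjusted p of 0.1 (0% of genes), and 0 of the 3 patterns. For 288 genes the unadjusted p lay under 0.05, and for 175 without animal 3. Of these, 168 were lower in *Fezf2+ve* IT-PNs (2.27% of genes), the 3 patterns among them, and 120 were higher (1.62%), none of the 3 among them. Lower levels in *Fezf2+ve* in 5 of 5 animals were found for 193 genes (2.6%), 1 of the 3 patterns (the alpha pair, in animal 5 by 1 read) among them. Without the block edgeR called 279 genes (3.77%) and 0 of the patterns, a count that ran from 0 to 646 over settings of the fit, and DESeq2 with the block called 98 of the 1664 genes that it gave an adjusted p (5.89%), with 1 of the 3 patterns, again the alpha pair, among them. The fitted log2 fold changes with the block were -4.01 (standard error 1.31) for the alpha pair, -4.00 (standard error 1.51) for *Hbb-bs* and -4.03 (standard error 1.50) for *Hbb-bt*.

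Summed over the 3 patterns, haemoglobin reads numbered 100 in *Fezf2+ve* and 927 in *Fezf2−ve* libraries. Of these 1027 reads, 57.9% came from *Fezf2−ve* library 1, and 82.3% from *Fezf2−ve* libraries 1 and 2 together. In *Fezf2−ve* library 1 they made up 0.354% of gene reads (95% Wilson interval 0.327 to 0.384%), and in *Fezf2−ve* library 2 0.280% (0.248 to 0.317%). *Fezf2+ve* library 1 held 0.0753% (0.0612 to 0.0927%), which was 89 of the 100 haemoglobin reads of its type. *Fezf2−ve* libraries 3 and 4 held 0.0184% (0.0129 to 0.0261%) and 0.0237% (0.0179 to 0.0312%), and *Fezf2+ve* library 2 held 0.00929% (0.00505 to 0.0171%). *Fezf2+ve* library 3 and *Fezf2−ve* library 5 had 1 read each. *Fezf2+ve* libraries 4 and 5 had 0 reads, which by the rule of 3 leaves room for shares of up to 0.00198 and 0.00148%. Animal 1 therefore had the highest share of both types and animal 2 the next, with intervals that did not overlap those of animals 3 to 5 within *Fezf2−ve*. In *Fezf2−ve* library 1 *Hbb-bs* ranked 107 by reads among 7334 genes with reads, and in *Fezf2−ve* library 2 it ranked 77 among 5401. The mean within-animal difference of the summed level was -4.36 ± 2.28 (SD, n = 5) on the log2(CPM + 1) scale, and without animals 1 and 2, an alternative added after the values had been seen, it was -4.89. The ratio of mean CPM was 7.92, but 31.9 without animal 1 and 5.21 without animal 2.

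Synthetic ERCC transcripts, added to each RNA sample in the study, took 46.7% of the reads on genes and ERCC transcripts in *Fezf2+ve* library 1, and 24.8 and 27.1% in *Fezf2−ve* libraries 1 and 2. In the other 7 libraries the share was 2.79 to 12.6%. The 3 libraries with the highest ERCC share were thus the 3 with the highest haemoglobin level, in another order, and the part of input RNA in the haemoglobin levels was not tested.

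Markers of microglia, the resident macrophages of the brain, also had lower summed levels in *Fezf2+ve* libraries, but none was called by edgeR with the block. The study's own DESeq2 comparison, which took the pairing of animals into account, did report some of them. At a false discovery rate of 0.1 it gave *C1qa*, *C1qb*, *C1qc*, *Csf1r*, *Tyrobp* and *Siglech* as higher in *Fezf2−ve* IT-PNs. *Ikzf1* and *Foxp2*, described below, were also among its genes higher in that type. All 19 listed markers had reads and none was at 0. Of the 18 that passed the filter, 14 had an unadjusted p under 0.05 and were lower in *Fezf2+ve*, with a median log2 fold change of -4.68 (-5.26 to -4.32 with an animal left out) against -0.16 for all genes tested. With an animal left out 11 to 14 had an unadjusted p under 0.05. Their summed level was 669, 344, 313, 152 and 447 CPM in *Fezf2+ve* libraries 1 to 5, and 10529, 10142, 11872, 3222 and 6724 CPM in the *Fezf2−ve* libraries. *Cst3*, which is also expressed by other brain cells, had the most reads (2532). Among *Fezf2−ve* libraries the summed markers were highest in library 3, where haemoglobin stood at 184 CPM, and library 5 had 6724 CPM of markers and 4.59 CPM of haemoglobin. The part of these markers in the haemoglobin difference was not tested.

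**Figure D3:**
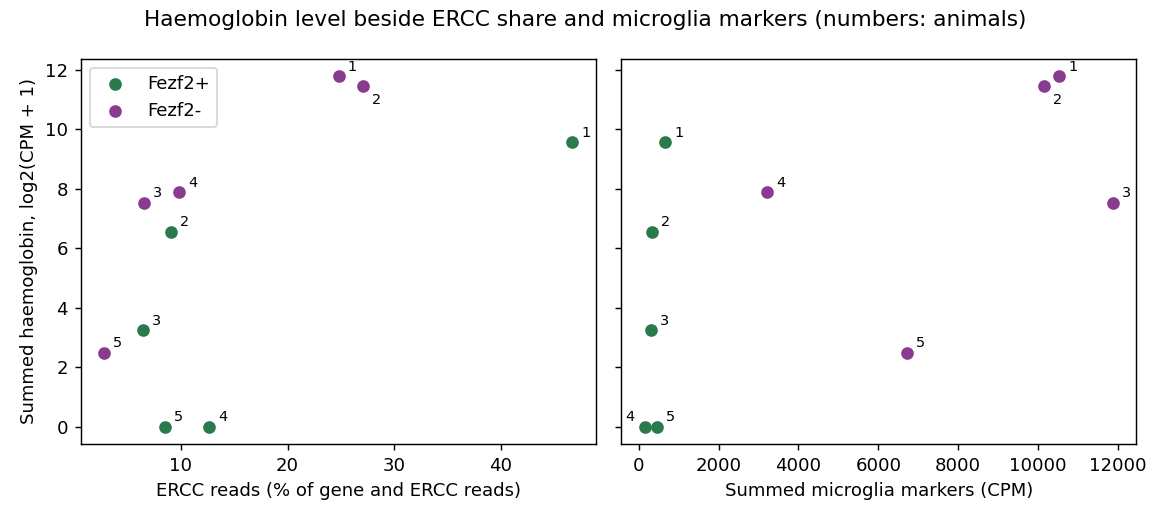
The summed haemoglobin level, log2(CPM + 1), is plotted against the ERCC share of reads on the left and the summed CPM of 19 microglia markers on the right, with 1 point per library and animal numbers beside the points. The 3 libraries above 20% ERCC reads are the 3 highest in haemoglobin, whereas *Fezf2−ve* libraries 3 and 5 have high microglia markers at lower haemoglobin levels.

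The balance of alpha and beta reads was described by the share of the alpha pair in the reads of the alpha pair and *Hbb-bs*. This share was 25.9% (95% Wilson interval 16.1 to 38.9%) in *Fezf2+ve* library 1, with 54 reads. In *Fezf2−ve* libraries 1 and 2 it was 42.0% (37.2 to 47.0%, 388 reads) and 28.2% (21.7 to 35.7%, 156 reads), so these intervals did not overlap. *Fezf2−ve* library 3 had 65.2% (44.9 to 81.2%, 23 reads) and library 4 had 33.3% (19.2 to 51.2%, 30 reads). Within animal 1 the *Fezf2−ve* interval overlapped that of the *Fezf2+ve* library. The other libraries had 6 reads or fewer, which leaves the share undetermined at this depth.

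**Figure D4:**
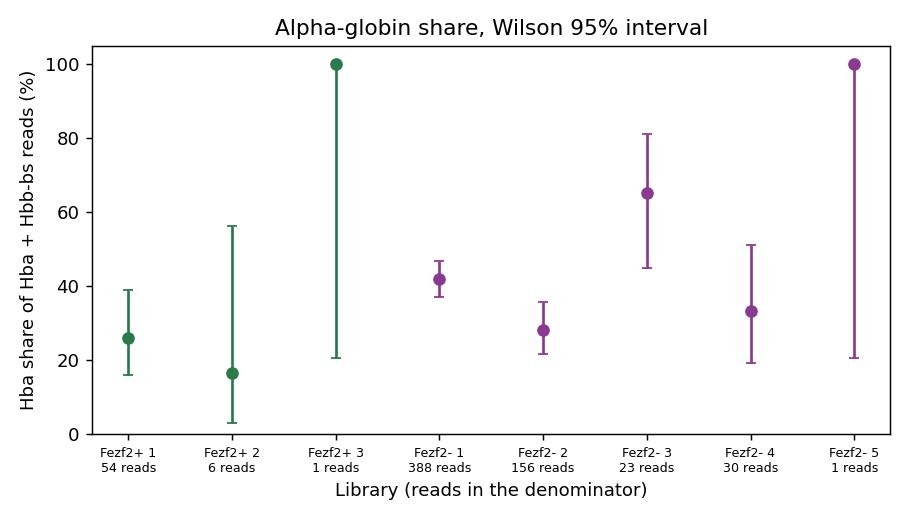
Points give the percent of alpha reads among alpha and *Hbb-bs* reads in each library with any such read, and bars give 95% Wilson intervals, with green for *Fezf2+ve* and purple for *Fezf2−ve* libraries. Libraries with at least 10 reads ranged from 25.9 to 65.2%.

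Of the other globin genes, 9 of the 11 listed were in the table and 3 had reads. *Hbq1b*, a theta-globin gene between *Hba-a1* and *Hba-a2* (chr11:32286965-32287784, plus strand), had 3, 0, 0, 0 and 0 reads in *Fezf2+ve* and 34, 8, 6, 2 and 0 reads in *Fezf2−ve* libraries. It shared 0 of 513 windows of 50 bases with *Hba-a1*. Its fold change on the log2 scale was -3.84 (standard error 1.59, adjusted p = 0.998 by edgeR quasi-likelihood F-test and Benjamini-Hochberg), and it was lower in *Fezf2+ve* in 4 of 5 animals. *Hba-x*, the embryonic alpha-type gene, had 10 reads, all in *Fezf2−ve* library 1. *Cygb* had 1 read. The embryonic beta-type genes *Hbb-y*, *Hbb-bh1* and *Hbb-bh2*, *Hbq1a*, *Mb* (myoglobin) and *Ngb* (neuroglobin) were at 0.

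Within 100 kb of the alpha genes 9 other genes were in the table. Apart from *Hbq1b* and *Hba-x* they were at 15 reads or fewer: *Rhbdf1* had 15, of which 11 were in *Fezf2+ve* library 5, *Nprl3*, *Snrnp25* and *Sh3pxd2b* had 1 each, and *Mpg*, *Il9r* and *Hbq1a* had 0. The 13 genes within 100 kb of the beta genes, olfactory receptor genes and embryonic globins, all had 0 reads.

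The remaining lists held no called gene either, and few with an unadjusted p under 0.05. Ranges in brackets after their medians are those with an animal left out. Of the 12 haem synthesis genes beside *Alas2*, 5 were tested and 0 had an unadjusted p under 0.05, with a median log2 fold change of 0.87 (0.73 to 1.93). Those with the most reads were *Cpox*, with 18, *Abcb10*, with 15, and *Alas1*, the haem synthesis enzyme of other tissues, with 11. Of the haem breakdown and clearance genes 4 of 9 were tested and 0 had an unadjusted p under 0.05, with a median of -1.96 (-2.21 to -0.86), or of -3.34 without the block, where 2 had an unadjusted p under 0.05. *Hmox2*, a haem oxygenase, had 385 reads, of which 371 lay in *Fezf2−ve* library 3, and *Hp*, *Hpx* and *Cd163*, which bind or take up free haemoglobin and haem, were at 0. *Lrp1* had 17 reads and *Blvra* 9.

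Among 11 genes of iron uptake and storage, 7 were tested, 1 was lower and 1 higher in *Fezf2+ve* at an unadjusted p under 0.05, with a median of -1.65 (-2.02 to -1.21). Both code for ferritin chains, which store iron. *Fth1* (heavy chain) had 1095 reads in *Fezf2+ve* and 107 in *Fezf2−ve* libraries, 783 of them in *Fezf2+ve* library 1, and was higher in *Fezf2+ve* in 5 of 5 animals (log2 fold change 3.07, standard error 1.19). *Ftl1* (light chain) had 22 and 164 reads and was lower in *Fezf2+ve* in 5 of 5 animals (log2 fold change -2.57, standard error 1.06). For each, the adjusted p was 0.998 by edgeR quasi-likelihood F-test and Benjamini-Hochberg. *Fbxl5* had 142 reads, of which 136 were in *Fezf2−ve* library 1.

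Genes of the red cell membrane and its enzymes numbered 28 in the table, of which 19 had reads and 11 were tested. None of the 11 had an unadjusted p under 0.05, and 3 were lower in *Fezf2+ve*, with a median log2 fold change of 0.56 (0.08 to 0.83), which turned to -0.26 without the filter. Their summed level was 322, 622, 398, 79.2 and 197 CPM in *Fezf2+ve* and 268, 236, 356, 85.2 and 262 CPM in *Fezf2−ve* libraries, so the types overlapped. *Mkrn1* and *Car2*, which are expressed in brain as well, had 58 and 51 reads. *Epb42*, *Kel*, *Gypc*, *Ermap*, *Aqp1*, *Car1*, *Ube2l6*, *Ypel4* and *Trim10* were at 0. Of the erythroid transcription regulators 3 of 15 were tested, with a median of -2.88 (-3.32 to -0.18), the nearest to 0 being without animals 2 and 3 in turn. *Ikzf1*, which also acts in other blood and immune cells, was lower in *Fezf2+ve* in 5 of 5 animals (log2 fold change -2.88, standard error 1.28, adjusted p = 0.998 by edgeR quasi-likelihood F-test and Benjamini-Hochberg). It had 423 reads, of which 290 were in *Fezf2−ve* library 5. *Sox6*, also a gene of neurons, had 512 reads, of which 388 were in *Fezf2+ve* library 3, and *Nfe2l2* had 13, while *Klf1*, *Nfe2*, *Myb* and *E2f2* were at 0.

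Markers of other blood cells were scarce. Of 14 platelet markers 3 were tested, with a median of 0.64 (0.23 to 2.58), and *Gp1bb* was higher in *Fezf2+ve* in 5 of 5 animals (log2 fold change 3.33, standard error 1.52, adjusted p = 0.998 by edgeR quasi-likelihood F-test and Benjamini-Hochberg). With any animal left out its unadjusted p was above 0.05. It had 20 reads in all, *F13a1* had 16 and *Gp9* had 9, and *Ppbp*, *Gp1ba*, *Gp5*, *Itga2b* and *Tubb1* were at 0. Of 14 neutrophil markers 10 were at 0, *S100a8* and *S100a9* among them, 1 was tested, and its log2 fold change was -1.68 (-4.74 to 0.37), with the direction turned without animal 4. Without the block its fold change was -7.59, with an unadjusted p under 0.05. That gene was *Csf3r*, which microglia also express, with 1472 reads, of which 1454 were in *Fezf2−ve* library 4, and *Cxcr2* had 6 and *Ltf* 5. Of 15 lymphocyte markers counted, 12 were at 0 and none was tested, and *Cd4* had 3 reads, *Cd52* had 2 and *Lck* had 1, all in *Fezf2−ve* library 1. Of 11 blood monocyte markers 7 were at 0, *Ly6c2*, *Ccr2* and *Lyz2* among them, and 2 were tested with a median of 2.19 (0.12 to 2.81), or of 0.08 without the filter. *Vcan*, also made by oligodendrocyte precursors, had 1008 reads, of which 819 were in *Fezf2+ve* library 5, while *Fn1* had 9 and *Plac8* had 1. Of 10 plasma protein genes of the liver 9 were at 0, none was tested, and *Alb* had 1 read. Over the red cell, erythroid, platelet, neutrophil, lymphocyte, monocyte and plasma lists, which were pooled only after their values had been seen, 20 genes were tested, of which 1 was lower and 1 higher in *Fezf2+ve* at an unadjusted p under 0.05, with a median of 0.60 (0.12 to 0.83) against -0.16 for all genes tested. Without the filter this median turned to -1.06.

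Vessel cells were described by 3 lists. Of 20 endothelial markers 9 were tested, 0 had an unadjusted p under 0.05 and the median was -0.10 (-0.82 to 0.22). This count became 2 without the block, 2 without the filter, 1 with DESeq2 size factors and 1 without animal 5. *Eng* had 73 reads, of which 69 were in *Fezf2+ve* library 2, *Emcn* had 69, of which 68 were in *Fezf2−ve* library 2, and *Mfsd2a* had 53, of which 30 were in *Fezf2+ve* library 1, with *Esam* at 0. Of 14 mural cell markers 2 were tested with a median of 0.99 (-0.39 to 1.49, negative without animal 2), *Cspg4* (242 reads, of which 114 were in *Fezf2+ve* library 1, also made by oligodendrocyte precursors), *Notch3* (90, of which 56 were in *Fezf2−ve* library 5) and *Pdgfrb* (6) had the most reads, and 8 were at 0, *Acta2* and *Kcnj8* among them. Of 9 fibroblast markers 1 was tested (log2 fold change -0.07, -0.70 to 0.29 with an animal left out, and a median of -2.43 without the filter), *Pdgfra*, another gene of oligodendrocyte precursors, with 740 reads, while *Col3a1* and *Dcn* had 4 each and *Col1a1* and *Col1a2* were at 0. Of 7 perivascular macrophage markers 2 were tested with a median of 0.14 (-0.11 to 1.22), *F13a1* had 16 reads, *Mrc1* 6 and *Ms4a7* 3, and *Cd163*, *Lyve1* and *Cbr2* were at 0.

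Among brain cells, 0 of 8 tested astrocyte markers, 0 of 11 tested oligodendrocyte markers and 0 of 1 tested interneuron marker had an unadjusted p under 0.05, with medians of 1.46 (0.93 to 2.20), 0.40 (0.14 to 1.23) and -0.83 (-1.20 to -0.46). Without the block these medians were 0.43, 1.26 and -1.46, and 1 astrocyte marker had an unadjusted p under 0.05. *Slc1a2* had 1817 reads, of which 778 were in *Fezf2+ve* library 2 and 791 in *Fezf2−ve* library 4, and *Slc1a3* had 271, of which 238 were in *Fezf2+ve* library 4. *Mbp* had 557, of which 289 were in *Fezf2+ve* library 2, and *Olig1* had 214. *Adarb2* had 1606 reads, of which 1144 were in *Fezf2−ve* library 5, and *Gad2* had 6 and *Gad1* 4. Of 24 projection neuron markers 13 were tested, with a median of 1.05 (0.35 to 1.40), or of 0.26 without the block, where 2 had an unadjusted p under 0.05. *Foxp2* was lower in *Fezf2+ve* in 5 of 5 animals (log2 fold change -3.56, standard error 1.41, adjusted p = 0.998 by edgeR quasi-likelihood F-test and Benjamini-Hochberg), with 1280 reads, of which 560 and 665 were in *Fezf2−ve* libraries 1 and 3. *Rorb* had 728, of which 646 were in *Fezf2−ve* library 3, and *Camk2a* had 588, of which 529 were in the same library. Of the 6 genes of these lists outside the microglia markers with an unadjusted p under 0.05 (*Hbq1b*, *Fth1*, *Ftl1*, *Ikzf1*, *Gp1bb* and *Foxp2*), 0 kept it with each of the animals left out in turn.

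**Figure D5:**
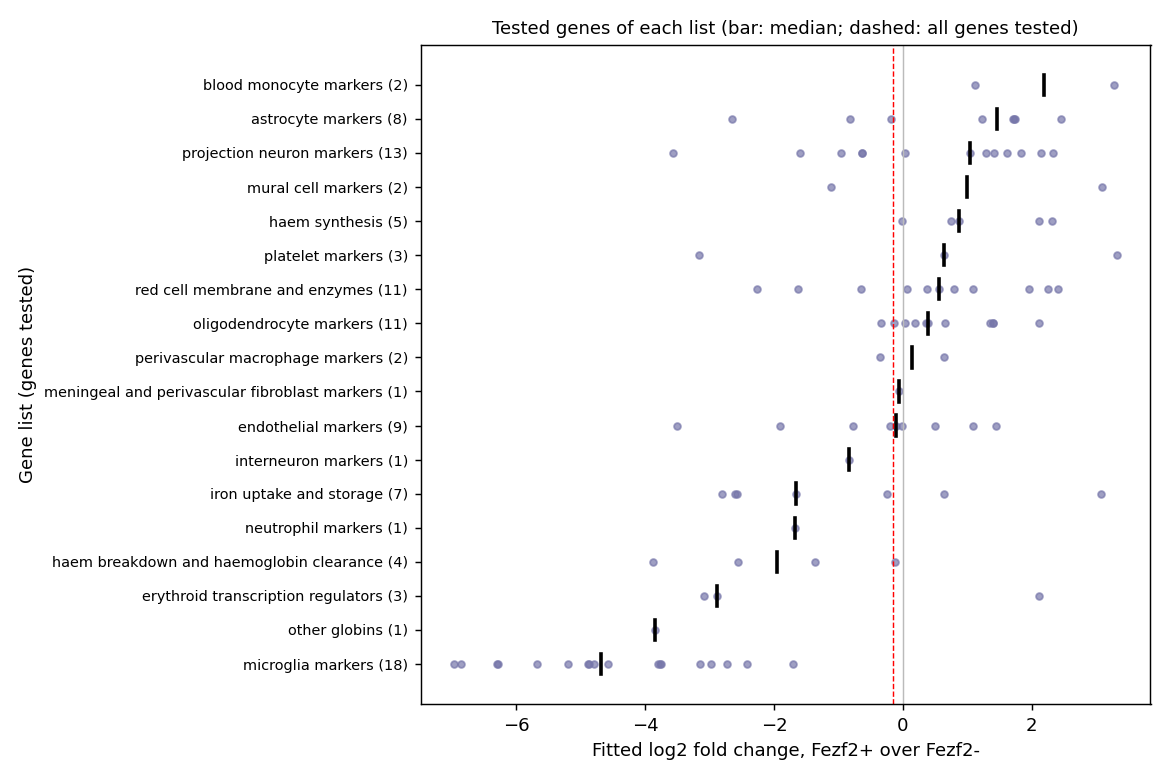
Each point is the fitted log2 fold change, *Fezf2+ve* over *Fezf2−ve*, of a tested gene of a list, with the number tested in brackets, black bars for medians and a dashed line for the median of all genes tested. The microglia markers lie furthest to the left, with a median of -4.68.

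The genes whose log2(CPM + 1) was most like the summed haemoglobin level over the 10 libraries were *Calr* (Pearson's r = 0.94), *BC048502* (0.938), *Fbxl7* (0.922), *Cd164* (0.904) and *Commd3* (0.901). *Hbq1b* came in place 7, with 0.894. Only genes that passed the filter were ranked, with the members and repeated count patterns left out. Each point is a library, and the points share their depth and animals. The first 5 genes had only 13 to 50 reads in all and *Hbq1b* had 53, so the likeness rests on few reads. *Calr*, which codes for a chaperone of the endoplasmic reticulum, had 7, 2, 1, 0 and 0 reads in *Fezf2+ve* and 23, 3, 4, 3 and 0 reads in *Fezf2−ve* libraries. *Cd164*, which codes for a sialomucin, had 1, 3, 0, 0 and 0 reads in *Fezf2+ve* and 32, 6, 4, 3 and 1 reads in *Fezf2−ve* libraries. By Spearman's rank correlation 2 of the 5 were again among the first 5, and with an animal left out 1 or 2 were.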

How the data were processed

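The authors demultiplexed and trimmed the reads, discarded those under 50 nt, mapped them to mm10 or the ERCC sequences with TopHat2 2.1.1, and counted them with bedtools 2.26.0 multiCov on RefFlat genes. They deposited the raw counts of genes and of ERCC transcripts used here, without normalization. The use of strand is not given in the sources used here. The authors' table of their own DESeq2 comparison was not used.

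Genes that reached 10 CPM in 2 or more libraries were tested by QL (quasi-likelihood) F-tests in edgeR 4.0.16 (R 4.3.3), with TMM size factors and a term for each animal. A gene was called where its p after Benjamini-Hochberg adjustment did not exceed 0.1. Standard errors were calculated back from the F statistic. Levels are log2(CPM + 1) over the deposited gene reads, as computed here. Python 3.11.15, numpy 2.4.6, pandas 2.3.3 and scipy 1.17.1 were used for the remaining steps, and DESeq2 1.42.0 for an alternative. The edgeR fit was tested on simulated data, where planted differences were recovered at a low dispersion but were not called at a high one.

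The settings of the edgeR fit were not fixed in advance. The first fit used the legacy method with library sizes over all genes, and gave 292 genes with an unadjusted p under 0.05 with the block and 646 calls without it. In all 12 configurations were run, and the one used here (current method, library sizes over filtered genes, estimateDisp, not robust) was chosen after these counts had been seen, because its 288 and 279 matched those of an earlier analysis of the same data. Its match is therefore no independent support for either analysis.

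The members and gene lists were chosen with earlier results of these data known. Both libraries of an animal carry its number, by the sample records and the study's methods. The deviations of both from the means of their types had a mean Pearson correlation across genes of 0.028 (-0.030 to 0.097, 5 pairs). For libraries of different animals it was -0.007 (-0.124 to 0.123, 20 pairs), a range that holds every same-animal value. Named genes were the 7 members, of each list up to 3 of those with the most reads and any with an unadjusted p under 0.05, the 5 most like the summed haemoglobin level, and those within 100 kb. The markers of microglia with an unadjusted p under 0.05 are given by their count. Alternatives were no block, DESeq2, its size factors, other filters, thresholds, denominators and pseudocounts, downsampling, and leaving out each animal.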

Additional observations from a re-analysis of the deposited data

Results flagged for a closer look

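*Fezf2+ve* library 1 stood apart from the other 4 libraries of its type in 6 values, where a gap divided by the range above 0.71 was taken as far. Its level was 119 CPM for *Hba-a1* and *Hba-a2*, where the next library had 9.29 CPM. It was 339 CPM for *Hbb-bs* (next 46.4 CPM), 296 CPM for *Hbb-bt* (next 37.2 CPM) and 753 CPM for the summed haemoglobin patterns (next 92.9 CPM). *Hbq1b* had 25.4 CPM, which was 3 reads, and 0 in the others, and with a single library above 0 this measure always takes its largest value. The ERCC share of the same library was 46.7%, and the next was 12.6%. Of 14 sets of 5 values examined, 6 stood out in this way. Chance gives about 1 in 20 only for independent, normally distributed values. CPM values of which most lie near 0 are skewed, so that rate is no fair reference for them. The haemoglobin values are not independent of each other and had been seen when the genes were chosen, so their number is only a description. Its high values were not tested against any cause.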

How the results depend on the processing

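With the animal block, each of the 12 edgeR configurations gave 0 calls, with 284 to 311 genes at an unadjusted p under 0.05. DESeq2 with the block gave 98 calls. Without the replicate block the count depended strongly on the settings, which were chosen after these counts had been seen. The configuration used gave 279 calls, and the other 11 gave 276, 277 and 279 (current method), 638 and 646 (legacy method), 40 and 40 (legacy method, robust) and 0 in the 4 robust fits of the current method. The count without the block should therefore be read as anything from 0 to 646. Other size factors, filters, the 0.05 threshold and leaving out each animal gave 0 calls with the block.

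The mean within-animal differences of the 3 haemoglobin patterns and their sum moved by less than 1 SD and kept their sign under every alternative run, the unpaired difference of means (no replicate block) being equal by construction. With an animal left out, the sum ranged from -4.89 to -3.48. Libraries at 0 enter these means through the pseudocount, and with 0.5 CPM the sum gave -4.75.

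Over the 7 blood lists, the count of genes at an unadjusted p under 0.05 was 2, and became 5 without the block, 1 with DESeq2, 1 without the filter and 0 to 1 with an animal left out. Their median changed from 0.60 to -1.06 without the filter, which admits genes with very few reads. For single lists, 154 of 162 medians and 127 of 162 counts stayed within their limits (1 SD between animals, 1.5 times). The cause of these changes was not tested. Depth limits all of this: below 3 reads (13.8 to 33.7 CPM) a gene was not detectable.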
